A study of Homo sapiens with 6 samples.

Results

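The genes described here are 35 interferon-stimulated effector genes, chosen by name and family from the 23002 genes measured in U251, an established human glioblastoma line. The choice was made with earlier results of these data known. They comprise the IFIT, OAS, MX, IFITM, HERC, PARP and IFI families, the ubiquitin-like modifier ISG15 and its protease USP18, RSAD2 with its neighbour CMPK2, a group of other antiviral genes, and the transcription factors STAT2 and IRF9. Their RNA was sequenced in 3 samples of cells carrying a non-targeting control short hairpin RNA (sh-NC) and 3 samples carrying a short hairpin RNA against TRAF2 (sh-TRAF2), with no added cytokine named in the labels. Both were stable lines made with lentivirus, for which the study used selection with puromycin, the vector of the TRAF2 hairpins also carried an EGFP reporter, and each group was a single line whose replicates the study called biological. Which of the TRAF2 hairpins of the study was sequenced is not given in the sources used here. The question was how RNA levels in U251 cells differ when TRAF2, an adaptor and ubiquitin ligase of the tumour necrosis factor receptors, is lowered.

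Type I interferons bind a receptor on the cell surface whose kinases JAK1 and TYK2 phosphorylate STAT proteins, STAT2 among them. With IRF9 these form ISGF3, a complex that binds the interferon-stimulated response element (ISRE) in the promoters of many genes. The proteins made from those genes block virus entry, bind or cut foreign RNA, and deplete nucleotides, and others, such as USP18, damp the receptor itself. Many tumour cells keep part of this set switched on without any infection.

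The labels were checked on TRAF2. Its expression was 15.1, 18.4 and 15.4 FPKM (fragments per kilobase scaled to sequencing depth) in sh-NC replicates 1, 2 and 3, and 3.26, 3.22 and 3.33 FPKM in sh-TRAF2 replicates 1, 2 and 3. The fall was 79.9% of the sh-NC mean (log2 fold change -2.27, with a standard error (SE) of 0.079 and an adjusted p of 1.16e-06 from limma). Reads on genes, recovered from the steps of the FPKM values and so estimates, came to between 33999558 and 36823562 per sample. On these reads, replicates in no pair lay within counting noise of each other. Of 9 glial markers, 8 were in the table and their summed level ran from 1460 to 1530 FPKM in sh-NC and from 1810 to 1860 FPKM in sh-TRAF2, most of it VIM, while S100B was near 0 in every sample. Of the 7 tested, 3 were higher (42.9%, against 23.7% of all tested genes). They were VIM (log2 fold change 0.35), NES (1.12, from 5.35 to 11.7 FPKM) and GFAP (1.11, from 0.467 to 1.18 FPKM). The call of GFAP passed in 2 of 6 fits that left out 1 sample. Only its sh-TRAF2 mean was above 0.5 FPKM, the minimum mean over all samples for a test. Of 10 leukocyte markers, 5 were in the table, with sums of 16.5 to 17.4 FPKM in sh-NC and 15.6 to 17.9 FPKM in sh-TRAF2. Without CD68 the sums were 0.556 to 0.883 FPKM and 0.385 to 0.752 FPKM, and PTPRC, which defines leukocytes, was near 0 in every sample. The part of the rise in glial markers in the results below was not tested.

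Many of the promoters found for these genes carry the letters of the ISRE. RefSeq promoters on GRCh38.p14, running from 250 bases before to 50 bases after a start site, were found for 29 of the 35 genes, with 39 start sites. The letters GAAANNGAAA, the core of the ISRE, were searched on both strands and stood in 25 of those 39 promoters (64.1%), against 1255 of all 35116 promoters (3.57%). Counted by gene, 21 of 29 (72.4%) carried them, against 4.38% of all genes with a promoter. Since the members were chosen as interferon-stimulated genes, a high share follows from that choice and is given as a description. The following stretches are printed in the direction of transcription, with the matching letters in capitals, for genes past 2-fold (ISG15, IFITM1, IFI6 and IFIT1), genes that rose by less (IFITM3, SAMD9 and PARP14) and genes that did not pass (IFIT5, DTX3L and PARP9).
ISG15 promoter, chr1:1013377-1013406, + strand: gcctcggGAAAGGGAAACCGAAActgaagc
IFITM1 promoter, chr11:313990-314019, + strand: caaacagcagGAAATAGAAActtaagagaa
IFITM3 promoter, chr11:320885-320913, - strand: gGAAAAGGAAActgttgaGAAACCGAAAc
IFI6 promoter, chr1:27672288-27672317, - strand: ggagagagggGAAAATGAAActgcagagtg
IFIT1 promoter, chr10:89392504-89392532, + strand: tagTTTCACTTTCcccTTTCGGTTTCcct
IFIT5 promoter, chr10:89414544-89414573, + strand: tttagTTTCGATTTCttaagTTTCAGTTTC
SAMD9 promoter, chr7:93118096-93118125, - strand: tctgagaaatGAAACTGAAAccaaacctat
PARP14 promoter, chr3:122680800-122680829, + strand: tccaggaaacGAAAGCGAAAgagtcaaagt
DTX3L promoter, chr3:122564312-122564341, + strand: ggagggacctccagggaagcGAAACTGAAA
PARP9 promoter, chr3:122564322-122564351, - strand: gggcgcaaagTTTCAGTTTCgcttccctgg
In ISG15 a pair of matches overlap, in IFIT1 a pair lie side by side, and in IFIT5 the pair shown is joined by a further match upstream, in both of the latter as the reverse complement. The IFITM1 promoter carries 2 matches and that of IFI6 carries 3, of which 1 each is shown. The DTX3L and PARP9 lines hold the same match, read on opposite strands, since these neighbouring genes are transcribed away from each other. Printed sequence near a start site stops at the start or at the end of the match.

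The ISRE letters stood in promoters of genes that changed and of genes that did not pass. Among the members that were higher in sh-TRAF2 and had a promoter, 17 of 22 (77.3%) carried the ISRE letters, and among those that did not pass, 4 of 7 (57.1%) did. IFIT5, PARP9, DTX3L and IFI44L were the genes with a match and no change past the threshold. The letters TTCNNNGAA, the core of the GAS element bound by STAT dimers, stood in 10 of 39 promoters (25.6%) against 7.66% of all promoters, in places overlapping an ISRE match, as in IFI27. The letters GGGNNTTTCC, which fit sites of NF-kappaB, the factor that TRAF2 acts on, stood in 1 promoter, that of OAS3 (2.56%), against 1.91% of all. A match is a description of these letters and shows no binding.

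Most of the genes were higher after TRAF2 was lowered. Because they were chosen with earlier results of these data known, their shares beside those of all genes are a description. Of the 35, 34 had a mean of at least 0.5 FPKM and were tested with limma on log2(FPKM + 0.1), and 26 of them (76.5%) were higher in sh-TRAF2 at an adjusted p under 0.05, with 23.7% of all 11870 tested genes called higher. None was lower (limma, 0 at an unadjusted p under 0.05 also, and 0 with limma-voom on the recovered reads), with 20.9% of all tested genes called lower. The log2 fold change was above 0 in 32 of the 34 and ran from -0.04 to 1.60, with a median of 0.62, where the median of all tested genes was 0.019. Past a further threshold of 2-fold stood 10 members (29.4%), namely IFIT1, OASL, MX1, MX2, IFITM1, ISG15, USP18, IFI6, RSAD2 and XAF1, with 0.986% of all tested genes called higher by that rule. All 3 sh-TRAF2 samples lay above all 3 sh-NC samples in 24 of the 34 (70.6%), with 29.0% of all tested genes ordered so. The tested members had between 101 and 12570 reads in a sample. In a mixed population of cells, more cells expressing a gene and more RNA per cell cannot be told apart.

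**Figure D1:**
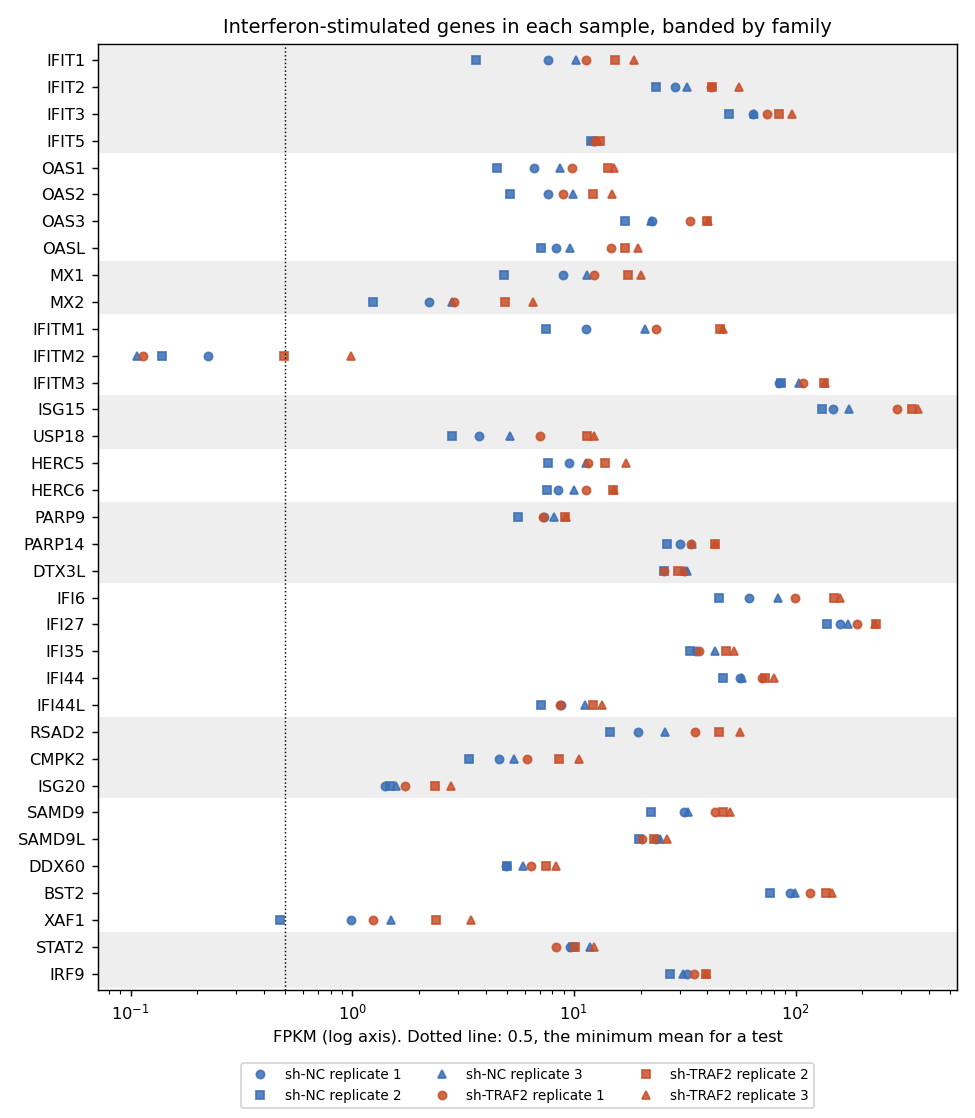
FPKM on a log axis of the 35 genes in each of the 6 samples, with families as bands, blue for sh-NC and orange for sh-TRAF2, and symbols for the replicate number. ISG15 reaches farthest to the right, at 358 FPKM in sh-TRAF2 replicate 3, IFITM2 lies lowest and mostly left of the dotted line at 0.5 FPKM, and in 24 genes the orange symbols are all to the right of the blue ones.

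ISG15 and USP18 were higher in every sh-TRAF2 sample than in any sh-NC sample, and the ligases HERC5 and HERC6 were higher by less. ISG15 is a ubiquitin-like protein that is joined to other proteins during the interferon response. Its level was 148, 132 and 174 FPKM in sh-NC replicates 1 to 3 and 287, 335 and 358 FPKM in sh-TRAF2 replicates 1 to 3. The groups were far apart, with a mean of 152 ± 21.2 (SD, n = 3) against 327 ± 36.4 (SD, n = 3), a ratio of 2.16. The log2 fold change was 1.11 (SE 0.11, adjusted p = 1.15e-04), and it stayed between 1.02 and 1.22 in the 6 fits that each left out 1 sample. USP18 removes ISG15 from proteins and also blocks signalling at the interferon receptor. It stood at 3.75, 2.83 and 5.16 FPKM in sh-NC and at 7, 11.5 and 12.4 FPKM in sh-TRAF2. Again the groups did not overlap, and the log2 fold change was 1.37 (SE 0.25, adjusted p = 0.00271). HERC5 is the main ligase that attaches ISG15 in human cells, and HERC6 is its close relative. HERC5 was at 9.48, 7.64 and 11.4 FPKM in sh-NC and at 11.6, 13.8 and 17.1 FPKM in sh-TRAF2, so that the lowest sh-TRAF2 sample lay just above the highest sh-NC sample. Its log2 fold change was 0.57 (SE 0.17, adjusted p = 0.0225) and passed in 2 of the 6 fits without 1 sample. HERC6 rose by 0.66 on the log2 scale (SE 0.13, adjusted p = 0.00379) and passed in all 6.

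Of the partners of ISG15 conjugation that were not members, the activating enzyme UBA7 (log2 fold change 0.06, adjusted p = 0.882) and the conjugating enzyme UBE2L6 (0.04, adjusted p = 0.847) did not pass. TRIM25, a ligase that also activates the RNA sensor RIG-I, was lower, from 123 ± 6.91 FPKM (SD, n = 3) to 88.3 ± 5.5 FPKM (SD, n = 3), which is -0.47 on the log2 scale (adjusted p = 3.21e-04).

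The IFITM proteins sit in membranes and stop viruses from fusing with them. IFITM1 had the highest fold change of the tested members. It stood at 11.4, 7.49 and 21.0 FPKM in sh-NC and at 23.6, 45.6 and 47.3 FPKM in sh-TRAF2. The lowest sh-TRAF2 sample was close to the highest sh-NC sample, and the other two were far above it. The mean went from 13.3 ± 6.92 (SD, n = 3) to 38.8 ± 13.2 (SD, n = 3), a ratio of 2.92, with a log2 fold change of 1.60 (SE 0.37, adjusted p = 0.00893). IFITM3 was the most abundant of the family, at 84.2, 86.0 and 104 FPKM in sh-NC and 108, 134 and 135 FPKM in sh-TRAF2. Its groups did not overlap either, but the log2 fold change was 0.46 (SE 0.10, adjusted p = 0.00741). IFITM2 was under the filter, at 0.107 to 0.223 FPKM in sh-NC and 0.114 to 0.992 FPKM in sh-TRAF2, which came to 4 to 8 and 4 to 35 reads. Its groups overlapped, and without the filter its log2 fold change was 1.04 (SE 0.58, adjusted p = 0.295). IFITM1 and IFITM2 share 351 exon bases on the same strand in GENCODE 29 (32.5% of those of IFITM1), and how reads in shared exons were counted is not given in the sources used here.

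The IFIT proteins bind foreign RNA and hold back its translation. The 4 genes lie near each other on chromosome 10, and 3 of them were higher in sh-TRAF2. IFIT1 was at 7.61, 3.63 and 10.2 FPKM in sh-NC and at 11.4, 15.3 and 18.6 FPKM in sh-TRAF2. The spread inside sh-NC was wide, and the groups were apart by little, with a log2 fold change of 1.16 (SE 0.34, adjusted p = 0.0227). It passed in 4 of the 6 fits without 1 sample, in which it ran from 0.74 to 1.48. IFIT2 (log2 fold change 0.71, adjusted p = 0.00384) and IFIT3 (0.51, adjusted p = 0.00869) passed in all 6. IFIT3, the most abundant, was at 64.3, 50.1 and 65.0 FPKM in sh-NC and at 74.1, 84.1 and 96.3 FPKM in sh-TRAF2, with no overlap. IFIT5 was level across the samples, at 12.2, 12.0 and 12.9 FPKM in sh-NC and 12.4, 13.1 and 12.6 FPKM in sh-TRAF2. Its log2 fold change was 0.04 with a 95% interval from -0.07 to 0.15 (adjusted p = 0.534), although its promoter carries 3 matches to the ISRE letters.

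The OAS enzymes sense double-stranded RNA and make 2′-5′-oligoadenylate, a signal for the decay of RNA, while OASL lacks that activity and acts on RIG-I. OASL was at 8.33, 7.10 and 9.61 FPKM in sh-NC and at 14.7, 17.0 and 19.5 FPKM in sh-TRAF2. Its groups were well apart, with a log2 fold change of 1.02 (SE 0.13, adjusted p = 3.65e-04). OAS3, the most abundant, was at 22.5, 17.0 and 22.2 FPKM in sh-NC and at 33.4, 39.7 and 40.2 FPKM in sh-TRAF2. It rose by 0.88 on the log2 scale (SE 0.11, adjusted p = 4.97e-04), and OAS1 by 1.00 (SE 0.23, adjusted p = 0.00874), a value that did not exceed the 2-fold threshold. OAS2 stood at 7.65, 5.13 and 9.95 FPKM in sh-NC and at 8.89, 12.3 and 14.9 FPKM in sh-TRAF2. Here sh-TRAF2 replicate 1 lay below sh-NC replicate 3, and the log2 fold change of 0.68 (SE 0.25, adjusted p = 0.0519) did not pass. PDE12, which degrades 2′-5′-oligoadenylate and is not a member, was higher, from 6.36 ± 0.127 FPKM (SD, n = 3) to 12.4 ± 0.432 FPKM (SD, n = 3).

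MX1 and MX2 are dynamin-like GTPases that trap viral components. MX1 was at 8.95, 4.86 and 11.5 FPKM in sh-NC and at 12.3, 17.5 and 20.1 FPKM in sh-TRAF2. MX2 was at 2.23, 1.24 and 2.81 FPKM in sh-NC and at 2.87, 4.87 and 6.55 FPKM in sh-TRAF2. In both genes sh-TRAF2 replicate 1 was only slightly above sh-NC replicate 3. The log2 fold changes were 1.03 (SE 0.29, adjusted p = 0.0212) for MX1 and 1.15 (SE 0.34, adjusted p = 0.0237) for MX2. These passed in 4 and 3 of the 6 fits without 1 sample.

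RSAD2 (viperin) makes a nucleotide that ends viral RNA chains, and CMPK2, transcribed from the neighbouring gene, supplies its substrate. RSAD2 was at 19.5, 14.5 and 25.8 FPKM in sh-NC and at 35.3, 45.0 and 56.4 FPKM in sh-TRAF2. The groups did not overlap, the mean ratio was 2.28 and the log2 fold change 1.20 (SE 0.22, adjusted p = 0.00259). CMPK2 was higher by 0.90 on the log2 scale (SE 0.21, adjusted p = 0.00889). ISG20, an RNA exonuclease, was low at 1.41 to 1.58 FPKM in sh-NC and 1.73 to 2.78 FPKM in sh-TRAF2, with a log2 fold change of 0.57 (SE 0.16, adjusted p = 0.0196) that passed in 3 of the 6 fits without 1 sample.

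Among the IFI genes, IFI6, a small membrane protein with antiviral and survival roles, had the highest fold change. It was at 61.7, 45.0 and 83.4 FPKM in sh-NC and at 99.9, 149 and 159 FPKM in sh-TRAF2. The groups did not overlap and the log2 fold change was 1.12 (SE 0.23, adjusted p = 0.00514). IFI27, a mitochondrial protein and the most abundant of these, was at 159, 139 and 173 FPKM in sh-NC and at 190, 231 and 227 FPKM in sh-TRAF2. It rose by 0.46 on the log2 scale (SE 0.093, adjusted p = 0.00444), close to the 0.48 of IFI44 (SE 0.079, adjusted p = 0.00170). IFI35 (log2 fold change 0.29, adjusted p = 0.118) and IFI44L (0.34, adjusted p = 0.180) had overlapping groups and did not pass. Their 95% intervals ran from -0.02 to 0.61 and from -0.10 to 0.77.

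PARP14 and PARP9 transfer ADP-ribose, and DTX3L is the ubiquitin ligase that works in a complex with PARP9. PARP14 was at 30.2, 26.3 and 34.0 FPKM in sh-NC and at 33.6, 43.4 and 43.4 FPKM in sh-TRAF2. It passed, with a log2 fold change of 0.41 (SE 0.12, adjusted p = 0.0221), although sh-TRAF2 replicate 1 lay below sh-NC replicate 3, and did so in 2 of the 6 fits without 1 sample. PARP9 did not pass (log2 fold change 0.28, SE 0.14, adjusted p = 0.138). DTX3L was at 31.4, 25.4 and 32.4 FPKM in sh-NC and at 25.6, 29.5 and 31.3 FPKM in sh-TRAF2. Its groups overlapped throughout, with a log2 fold change of -0.04 and a 95% interval from -0.28 to 0.19 (adjusted p = 0.760). PARP9 and DTX3L share 217 exon bases on opposite strands (2.43% of those of PARP9), and whether counting used strand is not given in the sources used here.

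Of the remaining antiviral genes, SAMD9 and its neighbouring paralog SAMD9L, restrict poxviruses and can hold back cell growth, and SAMD9 alone of this pair passed. SAMD9 was at 31.5, 22.2 and 32.6 FPKM in sh-NC and at 43.1, 46.8 and 50.7 FPKM in sh-TRAF2. SAMD9L was at 23.4, 19.7 and 24.5 FPKM in sh-NC and at 20.2, 23.0 and 26.2 FPKM in sh-TRAF2. SAMD9 thus had groups that did not overlap (log2 fold change 0.72, SE 0.13, adjusted p = 0.00316), and SAMD9L had overlapping groups (0.03, 95% interval from -0.21 to 0.28, adjusted p = 0.807). BST2 (tetherin) holds budding viruses on the cell surface. It was at 94.4, 77.0 and 99.4 FPKM in sh-NC and at 116, 137 and 146 FPKM in sh-TRAF2, apart in every sample, with a log2 fold change of 0.56 (SE 0.11, adjusted p = 0.00349). DDX60, a helicase tied to RNA sensing, rose by 0.48 on the log2 scale (SE 0.10, adjusted p = 0.00668). XAF1, which opposes inhibitors of apoptosis, was at 0.990, 0.472 and 1.49 FPKM in sh-NC and at 1.24, 2.40 and 3.44 FPKM in sh-TRAF2. Its groups overlapped, and its log2 fold change of 1.19 (SE 0.42, adjusted p = 0.0481) passed in 2 of the 6 fits without 1 sample.

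Of the ISGF3 factors among the members, IRF9 was higher and STAT2 did not pass. STAT2 was at 9.65, 9.88 and 11.8 FPKM in sh-NC and at 8.29, 10.1 and 12.3 FPKM in sh-TRAF2, with overlapping groups. Its log2 fold change was -0.04 with a 95% interval from -0.35 to 0.27 (adjusted p = 0.827). IRF9 was at 32.2, 27.1 and 31.1 FPKM in sh-NC and at 34.7, 39.4 and 39.5 FPKM in sh-TRAF2, so that all sh-TRAF2 samples were higher. It rose by 0.33 on the log2 scale (SE 0.076, adjusted p = 0.00864). GENCODE 29 holds another protein-coding gene model over 48.4% of the exon bases of IRF9 on the same strand.

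**Figure D2:**
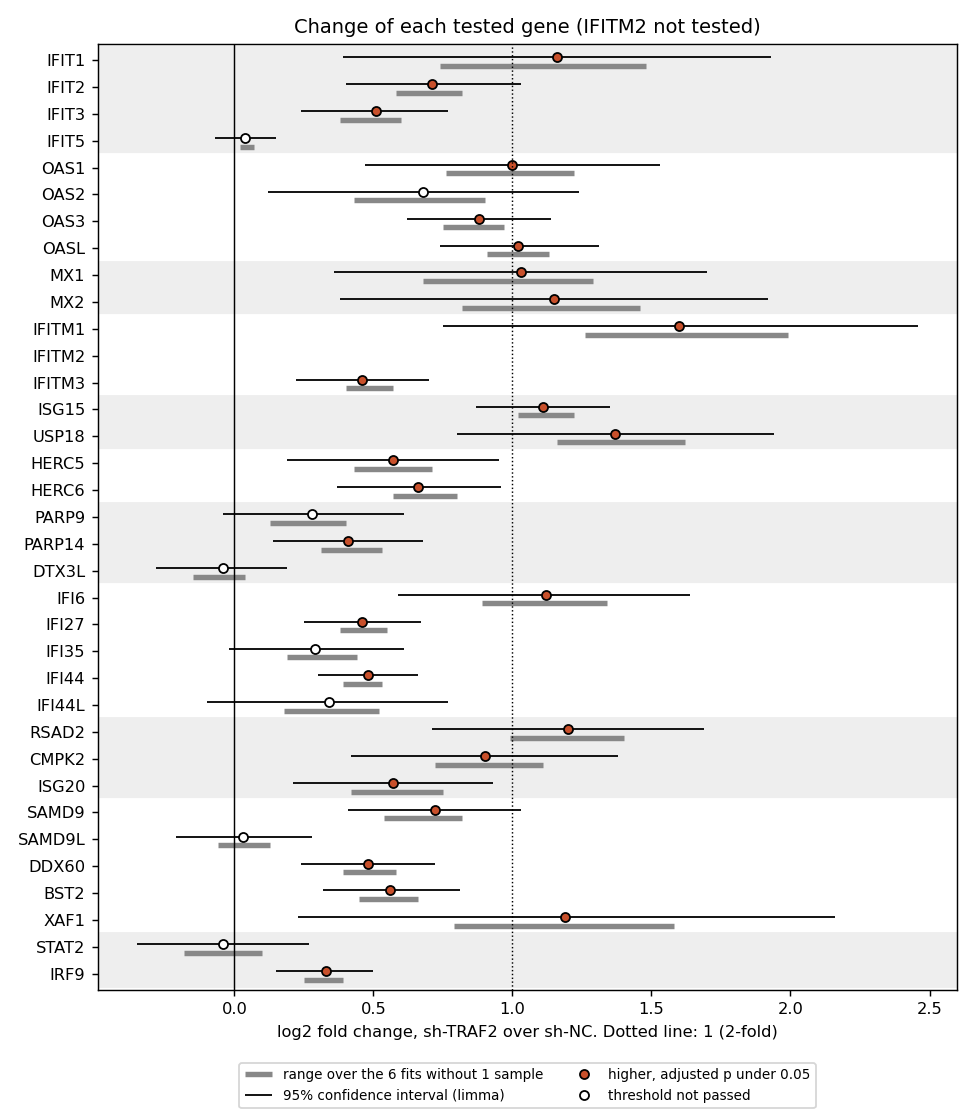
Log2 fold change of sh-TRAF2 over sh-NC for the 34 tested genes, with 95% confidence intervals from limma (thin lines) and the range over the 6 fits without 1 sample (thick grey lines). Filled circles passed an adjusted p under 0.05 and open circles did not, and the estimates run from -0.04 to 1.60 with DTX3L and STAT2 left of 0.

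The replicates showed a pattern shared by nearly all members. In sh-NC replicate 2, 30 of the 34 tested members had their lowest value of the 6 samples, with 17.6% of all tested genes lowest there. In sh-TRAF2 replicate 3, 30 of the 34 had their highest value, with 14.6% of all tested genes highest there. Within the groups, sh-NC replicate 3 was the highest sh-NC sample for 32 of 34 (33.1% of all tested genes) and sh-TRAF2 replicate 1 the lowest sh-TRAF2 sample for 34 of 34 (39.5% of all tested genes). Measured as the difference in log2(FPKM + 0.1) from the sh-NC mean, the median over the members was 0.03, -0.25 and 0.21 in sh-NC replicates 1 to 3 and 0.38, 0.63 and 0.85 in sh-TRAF2 replicates 1 to 3. Over all tested genes that median stayed within 0.032 of 0 in every sample. The nearest samples of the lines on this scale were sh-NC replicate 3 and sh-TRAF2 replicate 1, and the distance between them was smaller than that between sh-NC replicates 2 and 3.

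**Figure D3:**
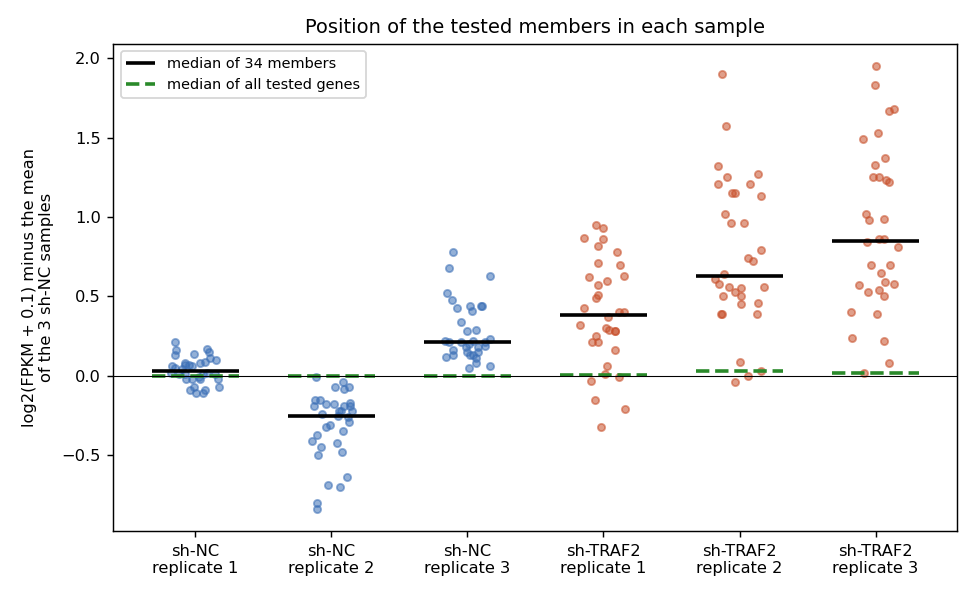
Difference of each tested member from its mean over the 3 sh-NC samples, on the log2(FPKM + 0.1) scale, in each of the 6 samples, with 1 point per gene. Black bars are the medians of the 34 members, from -0.25 in sh-NC replicate 2 to 0.85 in sh-TRAF2 replicate 3, and dashed green bars the medians of all 11870 tested genes, which lie near 0.

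The spread between replicates was also measured gene by gene. The SD of log2(FPKM + 0.1) between replicates had a median of 0.22 in sh-NC and 0.23 in sh-TRAF2 over the members, and 0.08 in each group over all tested genes. Members with a wide spread in one line had a wide spread in the other (Pearson 0.82, Spearman 0.75 across 34 genes of the same 6 libraries, given as a description), where the values over all tested genes were 0.54 and 0.46.

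Ratios of related genes within a sample were also compared. For 14 pairs, picked with the values known, the log2 ratio was taken in each sample. Since the choice of pairs rests on these values, the ratios are a description and no test is given. The groups did not overlap in 7 pairs, and the share over other pairs of genes was not counted. SAMD9 over SAMD9L was 0.43, 0.17 and 0.41 in sh-NC and 1.09, 1.03 and 0.95 in sh-TRAF2, a difference of 0.68. PARP14 over DTX3L was -0.05, 0.05 and 0.07 in sh-NC and 0.39, 0.55 and 0.47 in sh-TRAF2, a difference of 0.45. Each sh-TRAF2 value of both ratios was above each sh-NC value, and the lowest SAMD9 over SAMD9L ratio was that of sh-NC replicate 2, where the members were lowest. OAS1 over OAS2 was -0.21, -0.18 and -0.20 in sh-NC and 0.14, 0.21 and 0.02 in sh-TRAF2. RSAD2 over CMPK2 was 2.06, 2.08 and 2.25 in sh-NC and 2.50, 2.38 and 2.41 in sh-TRAF2. In these too the sh-TRAF2 values were all above the sh-NC values.

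IFIT1 over IFIT5 (difference 1.12) and IFITM1 over IFITM3 (difference 1.14) also had groups that did not overlap, but varied more inside sh-NC, with SDs of 0.71 and 0.60. PARP9 over DTX3L differed by 0.33. The groups overlapped in the other 7 pairs, among them MX2 over MX1 (difference 0.12), HERC6 over HERC5 (0.09), IFIT2 over IFIT3 (0.21) and ISG15 over USP18 (-0.26).

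**Figure D4:**
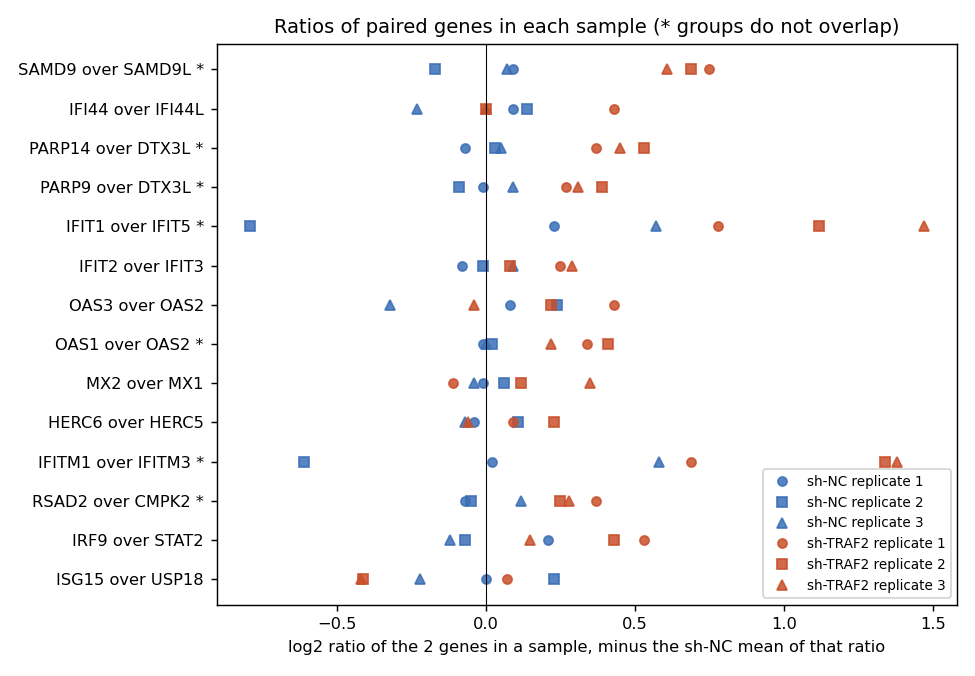
Log2 ratio of 2 genes within a sample, shown relative to the sh-NC mean of that ratio, for 14 pairs in the 6 samples, with blue for sh-NC, orange for sh-TRAF2 and symbols for the replicate number. Stars mark the 7 pairs whose groups do not overlap. In each of these the gene with the larger log2 fold change was put first, so that the orange symbols lie to the right.

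The rest of the interferon pathway, listed by role, held genes called in both directions. Of 78 listed genes, 72 were in the table and 62 were tested, and 19 of these (30.6%) passed as higher against 12 (19.4%) as lower, the median log2 fold change being 0.11. Over all tested genes the shares were 23.7% higher and 20.9% lower, so that the lower share was near that of all genes. Interferon beta, encoded by IFNB1, was at 0.870, 0.899 and 0.641 FPKM in sh-NC and at 1.44, 1.95 and 1.94 FPKM in sh-TRAF2, from 20 to 57 reads. All sh-TRAF2 samples were higher, with a log2 fold change of 1.05 (SE 0.17, adjusted p = 0.00144). IFNE, an interferon of epithelia, was lower on 11 to 47 reads (log2 fold change -0.82, adjusted p = 0.0351), a call that passed in 2 of the 6 fits without 1 sample. Its mean was 0.691 FPKM in sh-NC and 0.358 FPKM in sh-TRAF2, so that only its sh-NC mean was above the filter of 0.5 FPKM. None of 8 tested receptor and kinase genes was higher (23.7% of all tested genes), and the 3 that were lower (37.5%, against 20.9% of all tested genes) were IL10RB (log2 fold change -0.37, adjusted p = 5.24e-04), JAK1 (-0.31, adjusted p = 2.97e-04) and IFNAR2 (-0.30, adjusted p = 0.0366). The call of IFNAR2 passed in 1 of the 6 fits without 1 sample, and those of IL10RB and JAK1 in all 6.

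Among the other factors, STAT3 was higher (log2 fold change 0.27, adjusted p = 0.00173), and IRF2, which competes with activating factors at the ISRE, was lower, from 3.40 ± 0.0451 FPKM (SD, n = 3) to 1.64 ± 0.112 FPKM (SD, n = 3), as was IRF5 (log2 fold change -0.24, adjusted p = 0.0332, passing in 1 of the 6 fits without 1 sample). IRF1 (log2 fold change -0.12, adjusted p = 0.152) and IRF3 (0.05, adjusted p = 0.406) did not pass. IRF7, a strongly induced factor in many cells, was listed at 0 in all sh-NC samples and at no more than 0.0708 FPKM in sh-TRAF2. Of 7 tested genes that brake the pathway, 2 were lower (28.6%, against 20.9% of all tested genes) and 1 was higher (14.3%, against 23.7%). PIAS1 (log2 fold change -1.01, adjusted p = 3.97e-05) and SOCS3 (-0.45, adjusted p = 0.00876) were lower and the phosphatase gene PTPN11 was higher (0.23, adjusted p = 0.00221). SOCS1, PIAS4, PTPN1 and PTPN2 did not pass.

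Of 6 tested genes of RNA sensors and kinases, 4 were higher (66.7%) and 1 was lower (16.7%). Over all tested genes these shares were 23.7% and 20.9%. The cytoplasmic RNA sensors IFIH1 (log2 fold change 0.82, adjusted p = 0.00178) and DDX58, which encodes RIG-I (0.69, adjusted p = 0.00193), were higher, as was the RNA-binding antiviral protein gene ZC3HAV1 (0.31, adjusted p = 7.27e-04). The remaining 3 are named after their values were seen. EIF2AK2, which encodes the kinase PKR, was higher (0.45, adjusted p = 0.00831), the RNA-editing enzyme gene ADAR was lower (-0.29, adjusted p = 0.00250), and DHX58 did not pass (0.39, adjusted p = 0.227). Of 29 other tested interferon-stimulated genes, 11 were higher (37.9%, against 23.7% of all tested genes), among them CD274, which encodes the checkpoint ligand PD-L1 (0.52, adjusted p = 2.81e-04), the chemokine gene CXCL11 (0.95, adjusted p = 1.87e-04) and the RNA-processing gene PNPT1 (0.45, adjusted p = 5.25e-04). CXCL10, named after its values were seen, showed the replicate pattern of the members, at 6.79, 2.90 and 9.60 FPKM in sh-NC and 14.8, 24.8 and 30.8 FPKM in sh-TRAF2 (1.95, SE 0.41, adjusted p = 0.00573). Also named after their values were seen, APOL6 (-0.44, adjusted p = 0.00252) and RBM43 (-0.68, adjusted p = 0.0109) were the 2 of this list that were lower (6.9%, against 20.9% of all tested genes).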

How the data were processed

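RNA of U251 cells was sequenced in 6 samples, 3 sh-NC and 3 sh-TRAF2, grouped by their labels. Library preparation, sequencing and read processing were done by OE Biotech, and the table that the authors deposited gives FPKM per gene and sample. The submitters' processing notes name HISAT2, HTSeq, DESeq2 and R 3.2.0 without a role. The genome build, the annotation and the use of strand are not given in the sources used here.

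From the deposited FPKM, log2(FPKM + 0.1) was compared between the groups with limma 3.58.1 in R 4.3.3 (lmFit, eBayes with a trend, two-sided) in the 11870 genes whose mean reached 0.5 FPKM, with Benjamini-Hochberg adjustment over all of them. Adjusted p-values and standard errors in the text are from this fit. The pseudocount understates changes of low genes. Standard errors and p-values refer to samples of what is taken as 1 line per group. The eBayes step draws each gene's variance toward the trend over genes of like level. The members' median SD between replicates was 0.22 in sh-NC and 0.23 in sh-TRAF2, against 0.08 over all tested genes. For members of wide spread, standard errors and p-values therefore rest on a narrower spread than their own replicates show. Since 1 read is worth a fixed step in a gene's FPKM, the reads were recovered from these steps, to within a divisor common to a gene's 6 values. Before use, the fit was tested on made data with 200 changed genes, of which 94.5% were called. That share depends on the size and the noise of the made changes. The share for changes and replicate spread like those of the members was not tested, so the value does not apply to members that did not pass. In a like test of the read recovery on 1924 genes, 86.8% came out exactly, and how the others differed was not recorded.

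The members and gene lists were chosen with earlier results of these data known. Every member is accounted for by family. Members past 2-fold and the most abundant of each family are given by sample, and of each pathway list up to 3 genes with the smallest adjusted p under 0.05 are named. The fit was repeated with the pseudocount at 1 and at 0.01, with all genes, with genes of mean FPKM 1 and over, after TPM rescaling, after quantile normalization, with a replicate block, with the trend off, with each sample left out, and as limma-voom on the recovered reads. Promoters came from RefSeq (GRCh38.p14) and exon overlaps from GENCODE 29, and no coordinates of the authors' build were used. Other steps ran in Python 3.11.15 with pandas 2.3.3, numpy 2.4.6 and scipy 1.17.1, and plots were drawn with matplotlib 3.10.9. Protein sequences of the families were not analysed here. Some pathway genes are not reported here.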

Additional observations from a re-analysis of the deposited data

How the results depend on the processing

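Over 15 other settings no member changed its direction past the threshold, none was called lower, and the number of members called higher ran from 19 to 29. The number past 2-fold moved most, from 10 to 6 with a pseudocount of 1, to 6 without the filter and to 6 without the trend, and between 3 and 12 when 1 sample was left out. It was 3 without sh-NC replicate 2, while leaving out sh-TRAF2 replicate 3 gave 4 and leaving out sh-TRAF2 replicate 2 gave 6. Past 2-fold in all 6 such fits were IFITM1, ISG15 and USP18. The 19 members called higher under every setting were IFIT2, IFIT3, OAS1, OAS3, OASL, IFITM1, IFITM3, ISG15, USP18, HERC6, IFI6, IFI27, IFI44, RSAD2, CMPK2, SAMD9, DDX60, BST2 and IRF9. Without the filter, which adds genes to the adjustment, IFIT1, MX1, MX2, HERC5, PARP14, ISG20 and XAF1 no longer passed (limma adjusted p from 0.0698 to 0.147). Without the trend the same genes other than ISG20 were lost (0.0527 to 0.0920), and with TPM rescaling XAF1 was lost (0.0514). The cause was not tested. OAS2 passed with a mean of at least 1 FPKM (0.0473) and with limma-voom (0.0154). Over all tested genes the replicate numbers gave no sign of pairing the samples, since the deviations of same-numbered samples correlated at -0.08, 0.07 and 0.07. Across the members those correlations were -0.06, -0.4 and 0.77, and between samples of unlike number they ran from -0.86 to 0.76. With the replicate number as a block in limma, 28 members were higher, OAS2 (adjusted p = 0.0214) and IFI35 (0.0338) being added, and 10 were past 2-fold. The median log2 fold change of all genes was 0.019, and 0.006 with TPM rescaling and 0 with quantile normalization. The share of all tested genes called higher past 2-fold was 0.986%, and 0.388% with a pseudocount of 1 and 1.69% with limma-voom. IFITM2 had few reads, 4 to 35 in a sample, and why was not tested.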
